A study of Mus musculus with 19 samples.

Results

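The 10 genes described here are the receptors through which corticosteroids act, Nr3c1 and Nr3c2, and 8 genes that the glucocorticoid receptor is known to induce, Fkbp5, Sgk1, Tsc22d3, Cdkn1a, Pdk4, Hif3a, Plin4 and Errfi1. The rule names the genes and uses no measured value, though they were chosen with earlier results of these data known. Each matched 1 of the 48709 genes in the count files. All 10 passed the filter on low counts. Their transcripts were compared between groups of mice and between single animals, as a reading of stress before death. Corticosterone itself was not analysed here.

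RNA came from the CA1 region of the hippocampus of mice aged 7 months, with 1 library per animal and 19 libraries in all. WT control (n = 6) were littermates without the transgenes that received a control oligonucleotide. APP control (n = 6) were APPPS1-21 mice, which carry human mutant APP driven by a Thy1 promoter active in neurons, and they received the same control. APP anti-miR-mix (n = 7), called the treated mice below, were APPPS1-21 animals that received oligonucleotides inhibiting 3 microRNAs: miR-148a-3p, miR-146a-5p and miR-181a-5p. In every group the oligonucleotides were carried by lipid nanoparticles and injected into the dorsal hippocampus, so the surgery was shared by all animals. Titles of WT control libraries mention anti-miR-mix as well as control, and the reading as a control oligonucleotide follows the description in the study.

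Corticosterone, the main glucocorticoid of mice, enters the brain and binds 2 nuclear receptors. The mineralocorticoid receptor, encoded by Nr3c2, has the higher affinity and is abundant in hippocampal pyramidal neurons. The glucocorticoid receptor, encoded by Nr3c1, is occupied when the hormone is high, as in stress or at the daily peak. The bound receptors move to the nucleus and bind DNA elements built from the hexamer AGAACA and its reverse complement. Among the induced genes, Fkbp5 encodes a cochaperone that lowers the hormone affinity of the receptor, Sgk1 a kinase, Tsc22d3 the leucine zipper protein GILZ, Cdkn1a the cell cycle inhibitor p21, and Pdk4 a kinase that restrains pyruvate dehydrogenase. Hif3a encodes a subunit of the hypoxia-inducible factors, Plin4 a lipid droplet protein and Errfi1 an inhibitor of the EGF receptor.

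On GRCm38 (mm10), with the strand in parentheses, the annotation (GENCODE M21) places Nr3c1 at chr18:39410545-39519421 (minus) and Nr3c2 at chr8:76899442-77245012 (plus). It places Fkbp5 at chr17:28399094-28517527 (minus), Sgk1 at chr10:21882184-21999903 (plus), Tsc22d3 at chrX:140539528-140600659 (minus) and Cdkn1a at chr17:29090976-29100727 (plus). The others are Pdk4 at chr6:5483351-5496309 (minus), Hif3a at chr7:17031507-17062427 (minus), Plin4 at chr17:56100591-56109803 (minus) and Errfi1 at chr4:150853919-150868892 (plus). Counts were over exons, and 247 exon bases of Nr3c2 overlap Gm10649 on the opposite strand, 273 of Cdkn1a overlap AC167363.2, which had no counts, and 17 of Plin4 overlap Hdgfl2.

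Total counts ranged from 19362343 to 37018917 per library, and mitochondrial transcripts took 2.84% to 4.87% of the counts. Values below are read counts divided by DESeq2 size factors, called normalized read counts. The transgenic labels were borne out by Thy1, whose normalized read counts were 18117 to 20734 in WT control and 36153 to 62866 in APP control. Choroid plexus transcripts were high in WT control 5 and APP anti-miR-mix 6, and results that change without this pair are given with that value. APP control 5 stood apart in the induced genes, as described below, and values without it are given where a call or a size turns on it. The study kept its mice in single cages, and it trained injected mice of this age in a water maze. Whether the sequenced animals were trained is not given in the sources used here. The p-values measure the spread between these samples. In bulk tissue, fewer cells of a type and less RNA per cell cannot be told apart.

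The inhibited microRNAs are shown because the treated group differs from APP control by their inhibition. Each pairs with its targets mainly through the seed, bases 2 to 8, in capitals here (RefSeq mature sequences).
mmu-miR-181a-5p: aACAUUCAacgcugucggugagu
mmu-miR-146a-5p: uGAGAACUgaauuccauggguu
mmu-miR-148a-3p: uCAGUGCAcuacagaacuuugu
A match of 7 bases to a seed was present in the longest annotated 3′ UTR of 4 of the 10 genes. Nr3c1 held 3 matches for miR-181a-5p, Pdk4 held 1 for miR-181a-5p and 1 for miR-148a-3p, Hif3a held 1 for miR-146a-5p, and Errfi1 held 1 for miR-148a-3p. Among 20974 mouse genes with such a UTR, 16.4% held a match for miR-181a-5p, 11.1% for miR-146a-5p and 12.6% for miR-148a-3p. The share of genes with a match for any of these microRNAs was not computed. The median UTR length of all these genes was 955 bases. In the 10 genes the lengths ran from 1076 (Sgk1) to 4361 (Hif3a), and the shares are not matched for length. The matches outside Nr3c1 are given below on GRCm38, with the paired bases in capitals, and a match describes letters and says nothing of binding.
Pdk4, miR-181a-5p, chr6:5485373-5485401, minus strand: ttgctgcttcgTGAATGTgtgtggactct
Pdk4, miR-148a-3p, chr6:5484768-5484796, minus strand: aatgttaaataTGCACTGacctcagaaag
Hif3a, miR-146a-5p, chr7:17035596-17035624, minus strand: gggttctccacAGTTCTCcatacctcaat
Errfi1, miR-148a-3p, chr4:150868757-150868785, plus strand: ctttagaaaaaTGCACTGatctccgcact

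The promoters were searched for the receptor element because the induced genes moved together in 1 library. Windows of 300 bases, from 250 before to 50 after the annotated start (RefSeq, GRCm38.p6), were available for 9 of the 10 genes, 18 windows in all, since a gene can have several starts. The element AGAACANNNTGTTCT was found in 3 of 32851 windows (0.00913%), and 1 of the 3 belonged to Sgk1. The hexamer AGAACA on either strand, which the element contains, was found in 6233 windows (18.97%). It was present in 4 of the 18 windows, 3 of the 6 of Sgk1 and 1 of the 3 of Tsc22d3, and in 4 of 19 windows from 15 of the 18 other induced genes (Zbtb16, Cebpd and Cdo1 had none in the table used here), shares near that of all windows. For each of Sgk1 and Tsc22d3 the window with the most hexamers is printed, with the hexamers in capitals.
Sgk1, chr10:21993640-21993939, plus strand: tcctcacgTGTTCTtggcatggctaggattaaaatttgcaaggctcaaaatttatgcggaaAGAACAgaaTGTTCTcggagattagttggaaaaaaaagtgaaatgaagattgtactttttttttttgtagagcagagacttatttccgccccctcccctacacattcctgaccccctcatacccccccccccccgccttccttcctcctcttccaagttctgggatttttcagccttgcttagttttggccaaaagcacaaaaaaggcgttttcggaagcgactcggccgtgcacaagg
Tsc22d3, chrX:140600473-140600772, minus strand: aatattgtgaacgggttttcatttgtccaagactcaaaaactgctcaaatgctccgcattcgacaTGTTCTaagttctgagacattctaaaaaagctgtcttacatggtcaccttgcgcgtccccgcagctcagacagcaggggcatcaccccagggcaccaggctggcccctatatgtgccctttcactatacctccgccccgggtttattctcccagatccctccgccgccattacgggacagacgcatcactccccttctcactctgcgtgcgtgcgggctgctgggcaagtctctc
The lack of these letters in the other windows says nothing about binding elsewhere, and receptor elements commonly lie far from promoters.

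The receptors were among the more abundant of the 10 transcripts once gene length was taken into account. On the TPM scale, counts per kilobase of exon brought to a common sum in each library, the median level over the 19 libraries was 95.4 for Nr3c2 and 59.3 for Nr3c1. Tsc22d3 had a median level of 66.2 and Sgk1 of 61.5 on the same scale. Nr3c2 was above Tsc22d3 in 16 of 19 libraries, Tsc22d3 above Sgk1 in 12 and Sgk1 above Nr3c1 in 11, so the order of the last 3 was not distinct. Errfi1 followed at 38.3 TPM, Fkbp5 at 23.4 and Pdk4 at 13.4. The lowest levels were those of Cdkn1a at 9.81, Hif3a at 7.39 and Plin4 at 4.26 TPM. The only neighbours in this order whose ranges did not overlap over all 19 libraries were Nr3c1 and Errfi1.

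**Figure D1:**
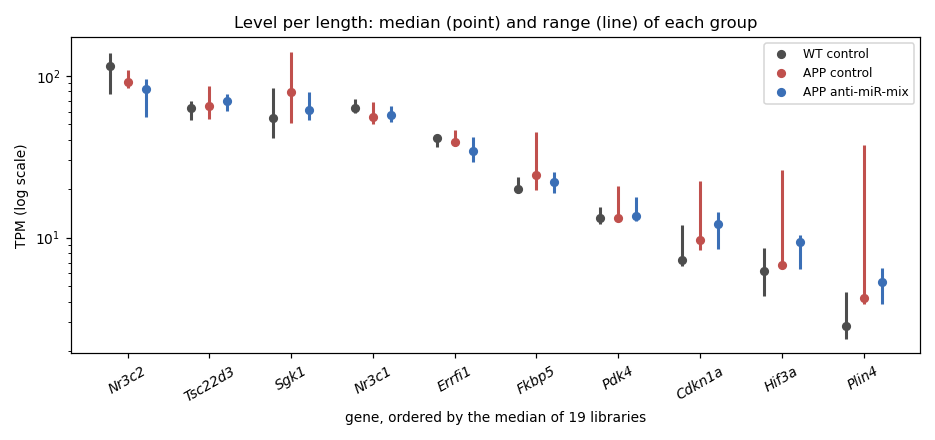
Level per length (TPM, log axis) of the 10 genes, ordered by the median of 19 libraries, with the median (point) and range (line) of each group. Nr3c2 had the highest median, 95.4, and Plin4 the lowest, 4.26, and neighbouring genes overlapped except Nr3c1 and Errfi1.

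The induced genes were at their highest in a single animal, APP control 5. All 8 of them had their highest normalized read count of the 19 libraries there, against 8.03% of all genes tested, and no other library was highest for any of them. Plin4 was 1527 in APP control 5 and 157 to 215 in the other 5 APP control libraries, which was 9.14 times their median. Hif3a was 1239 there against 310 to 425, or 3.88 times the median of the others. Across the whole series the highest value elsewhere was 267 for Plin4 and 473 for Hif3a, both in treated mice.

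Cdkn1a, Sgk1 and Fkbp5 followed with smaller ratios. Cdkn1a was 565 in APP control 5 and 209 to 293 in the other APP control libraries (ratio 2.34), and Sgk1 was 4913 against 1743 to 3141 (ratio 2.04). Fkbp5 was 3019 there and 1308 to 1716 in the others (ratio 1.89). The ratio was 1.59 for Pdk4, 1.37 for Tsc22d3 and 1.21 for Errfi1. The receptors did not share this, with ratios of 0.904 for Nr3c1 and 0.890 for Nr3c2.

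**Figure D2:**
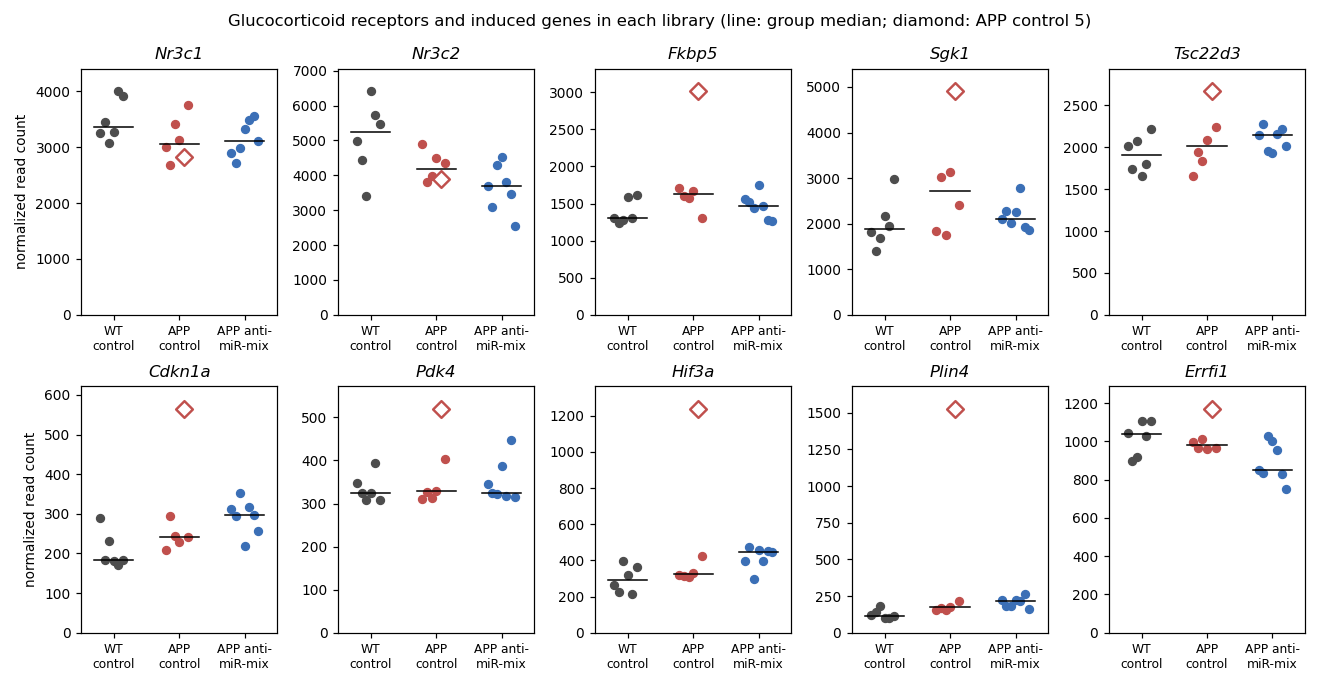
Normalized read count of each of the 10 genes in each library, by group, with 1 point per animal. APP control 5 is the highest point in all 8 induced genes, at 1527 for Plin4 and 1239 for Hif3a, and lies among the other points for Nr3c1 and Nr3c2.

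The shift in APP control 5 extended to some other genes known to respond to glucocorticoids. The median log2 deviation of the 8 induced genes from the other libraries of the group was 0.97 in APP control 5, while in the other 18 libraries it ran from -0.24 in APP anti-miR-mix 7 to 0.20 in WT control 6. Of 18 further induced genes, 11 were highest of all 19 libraries in APP control 5, against 8.03% of all genes tested. These 18 genes were chosen with earlier results of these data known, so they are not an independent check. Sult1a1, a sulfotransferase gene, was 927 there (4.93 times the median of the other APP control libraries), Map3k6 was 338 (3.02 times) and Mfsd2a, a lipid transporter gene of the blood-brain barrier, was 1110 (2.74 times). Per1 (1.07 times), Bcl6 (1.06 times) and Mt2 (0.927 times) were close to the median of the others.

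Other measures of APP control 5 differed from its group too. Its summed endothelial markers were 7491 normalized read counts against 5244 to 6206 in the other APP control libraries, the highest of the 19 libraries, with 4 of the 8 markers highest there. Blood transcripts summed to 2715 there, also the highest of 19. Oligodendrocyte markers summed to 161203 against 201439 to 277659 and microglial markers to 17004, the lowest of the group. Markers of amyloid-responding microglia summed to 5676 there against 8166 to 18435 in the other APP control libraries, inside the WT control range of 3821 to 6004. CA3 markers were the lowest of the 19 libraries at 2678, and meningeal and fibroblast markers summed to 5763, the fourth highest. Its total count, 30742047, its mitochondrial share, 4.42%, and its Thy1 count, 45171, lay inside the range of the other libraries. The part of these differences in the induced genes was not tested beyond the fits with the endothelium level given below.

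**Figure D3:**
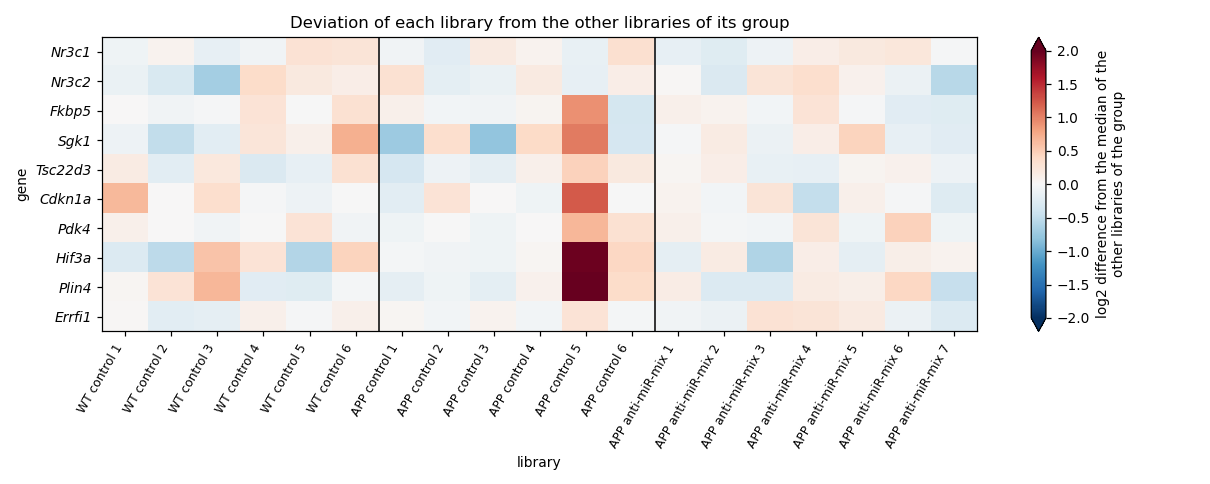
Heat map of the log2 deviation of each of the 10 genes (rows) in each library (columns) from the median of the other libraries of its group. The 8 induced genes deviate upward together in APP control 5, with a median of 0.97, and the other 18 libraries have medians between -0.24 and 0.20.

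Between APP control and WT control, the comparison that addresses the transgenes, none of the 10 genes passed an adjusted p of 0.05 in DESeq2 with all libraries, against 4.71% of all genes tested. Nr3c1 had a lowest, median and highest normalized read count of 3078, 3357 and 4006 in WT control and of 2678, 3063 and 3755 in APP control. Nr3c2 had 3413, 5235 and 6419 in WT control and 3806, 4167 and 4900 in APP control. The libraries of both groups overlapped for both receptors. The log2 fold change was -0.16 for Nr3c1 (SE 0.09, DESeq2 adjusted p = 0.471) and -0.26 for Nr3c2 (SE 0.14, adjusted p = 0.389), and without APP control 5 it was -0.13 and -0.24.

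Fold changes of the induced genes in this comparison were mostly above 0 and depended on APP control 5. Fkbp5 had a lowest, median and highest value of 1244, 1311 and 1621 in WT control and of 1308, 1630 and 3019 in APP control, a log2 fold change of 0.38 (SE 0.15, DESeq2 adjusted p = 0.147). It was 0.17 without APP control 5 (adjusted p = 0.442). Sgk1 ran from 1399 through 1894 to 2983 in WT control and from 1743 through 2714 to 4913 in APP control, with a log2 fold change of 0.50 (adjusted p = 0.175) and of 0.28 without that library (adjusted p = 0.549). All these groups overlapped.

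Cdkn1a and Hif3a also had smaller fold changes without APP control 5. The log2 fold change of Cdkn1a was 0.52 (SE 0.21, DESeq2 adjusted p = 0.149) and 0.23 without APP control 5 (adjusted p = 0.535). That of Hif3a was 0.72 (SE 0.32, adjusted p = 0.219) and 0.19 without it (adjusted p = 0.691). Tsc22d3 ran from 1661 through 1908 to 2218 in WT control and from 1652 through 2017 to 2673 in APP control, and Pdk4 from 308 through 325 to 394 and from 310 through 329 to 520. Their log2 fold changes were 0.11 (adjusted p = 0.736) and 0.13 (adjusted p = 0.770), and that of Errfi1 was -0.01 (adjusted p = 0.988). Without APP control 5 they were 0.03, 0.01 and -0.06. Leaving out a different library brought single genes past the threshold in DESeq2: Cdkn1a without WT control 1 (adjusted p = 0.0358), Sgk1 without WT control 6 (adjusted p = 0.0403) and Fkbp5 without APP control 6 (adjusted p = 0.0342).

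Plin4 also owed most of the size of its difference to that library. Its lowest, median and highest normalized read counts were 99.0, 116 and 183 in WT control and 157, 173 and 1527 in APP control. The coefficient of variation in APP control was 138%, and it was 13.8% without APP control 5. The log2 fold change was 1.67 (SE 0.50) with all libraries, where DESeq2 withheld the p-value because of the outlying count, and edgeR gave an adjusted p of 0.0652. Without APP control 5 it was 0.49 (DESeq2 adjusted p = 0.0492, against 4.69% of all genes called), and edgeR then gave an adjusted p of 0.106. The smaller difference therefore passed the threshold in DESeq2 and not in edgeR.

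For the treated mice against APP control, the comparison that addresses the inhibitors, none of the 10 genes passed the threshold, and neither did any of the 19284 genes tested (0%). DESeq2 gave 552 genes an unadjusted p under 0.05, and edgeR called 0 with 572 such genes. Errfi1 came first of the 10 genes by unadjusted p, with a log2 fold change of -0.18 (SE 0.08, DESeq2 adjusted p = 1.00). Errfi1 had a lowest, median and highest normalized read count of 749, 849 and 1030 in APP anti-miR-mix and of 959, 982 and 1170 in APP control. The groups overlapped.

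The direction of several induced genes in this comparison turned on APP control 5. Fkbp5 had a log2 fold change of -0.30 (DESeq2 adjusted p = 1.00) and of -0.10 without that library, and Sgk1 of -0.39 and -0.16. Hif3a changed from -0.23 to 0.30, Plin4 from -0.95 to 0.25 and Cdkn1a from -0.02 to 0.27, each with an adjusted p of 1.00 without it, where 0.00516% of all genes were called. Of the genes with seed matches, Nr3c1 had a log2 fold change of 0.01 and Pdk4 of -0.07, and without that library they were at -0.02 and 0.06. The libraries of this pair of groups failed to overlap for 0.0207% of all genes and for none of the 10.

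For the treated mice against WT control, groups that differ in both transgenes and inhibitors, Nr3c2 was lower and was the only one of the 10 genes called with all libraries, against 8.96% of all genes tested. Its normalized read counts in WT control 1 to 6 were 4994, 4443, 3413, 6419, 5736 and 5477. In APP anti-miR-mix 1 to 7 they were 3699, 3084, 4291, 4516, 3809, 3475 and 2544. The groups overlapped, since WT control 2 and WT control 3 lay within the range of the treated animals and 2 of the 7 treated animals were below every WT control library. The mean was 5080 ± 1056 (SD, n = 6) in WT control and 3631 ± 678 (SD, n = 7) in APP anti-miR-mix. The log2 fold change was -0.48 (SE 0.14, 95% interval -0.75 to -0.22, DESeq2 adjusted p = 0.00696), and edgeR gave an adjusted p of 0.0333.

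The call for Nr3c2 was lost in 2 of 35 alternatives. Without WT control 5 and APP anti-miR-mix 6 together the DESeq2 adjusted p was 0.0570. With the level of CA1 markers as a term, the log2 fold change was -0.27 (DESeq2 adjusted p = 0.131), and 4.83% of all genes were then called. In the same fit 3.78% of genes were called between APP control and WT control and 0.0104% between treated mice and APP control, with none of the 10 among them. Nr3c1 was 3078 to 4006 in WT control and 2710 to 3564 in APP anti-miR-mix, a log2 fold change of -0.15 (DESeq2 adjusted p = 0.374). The ratio of Nr3c2 to Nr3c1 in TPM, which takes gene length into account, averaged 1.73 ± 0.34 in the 6 WT control, 1.62 ± 0.21 in the 6 APP control and 1.37 ± 0.26 in the 7 treated libraries (mean ± SD), with overlapping ranges.

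Plin4, Cdkn1a and Hif3a were higher in the treated mice than in WT control once APP control 5, which belongs to neither group, was left out of the shared estimate of spread. Plin4 had a lowest, median and highest normalized read count of 159, 219 and 267 in APP anti-miR-mix against 99.0, 116 and 183 in WT control, and 4 of 7 treated animals were above every WT control library. Its log2 fold change was 0.73, with no DESeq2 p-value with all libraries and an adjusted p of 3.25e-05 without APP control 5 (edgeR 0.00298). Cdkn1a was 219, 297 and 353 against 171, 184 and 290, with 5 of 7 above. Its log2 fold change was 0.50, with a DESeq2 adjusted p of 0.0985 with all libraries and of 0.00356 without APP control 5.

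Hif3a was 297, 446 and 473 in APP anti-miR-mix and 212, 293 and 395 in WT control, with 6 of 7 treated animals above every WT control library. Its log2 fold change was 0.49, and the DESeq2 adjusted p was 0.387 with all libraries and 0.0104 without APP control 5. Without that library 9.52% of all genes were called. Mean log2 levels of other marker lists moved with the groups too, without overlap: microglia at 10.92 to 11.59 in the treated mice and 9.98 to 10.67 in WT control, amyloid-responding microglia at 10.08 to 11.04 and 7.45 to 8.81, mural cells at 8.18 to 9.02 and 7.88 to 8.11, and immediate early genes, which were lower, at 9.30 to 10.10 and 10.26 to 10.77. The part of these lists was not tested. Summed endothelial markers were 4753 to 6851 in APP anti-miR-mix and 4494 to 6316 in WT control. With their level as a term and all libraries in the fit, APP control 5 included, the log2 fold change was -0.08 for Plin4, 0.29 for Cdkn1a and 0.15 for Hif3a (DESeq2 adjusted p = 0.949, 0.527 and 0.855). Fkbp5 (log2 fold change 0.08), Sgk1 (0.12), Tsc22d3 (0.13) and Pdk4 (0.07) were not called in either fit, and Errfi1 was at -0.19 (adjusted p = 0.126, and 0.0489 without APP anti-miR-mix 3). Without WT control 1, Cdkn1a was called with APP control 5 kept (DESeq2 adjusted p = 0.0252). For none of the 10 genes did the libraries fail to overlap, which 3.42% of all genes did here and 1.57% did for APP control against WT control.

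**Figure D4:**
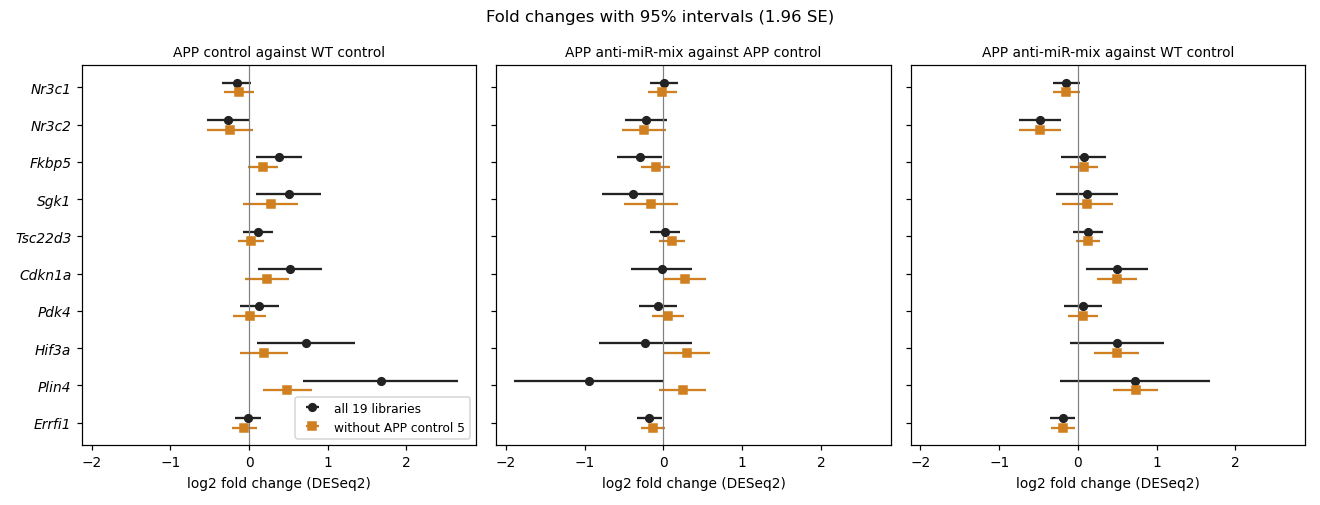
Log2 fold change of the 10 genes in the 3 comparisons with 95% intervals, with all 19 libraries and without APP control 5. The interval of Plin4 between APP control and WT control narrows around 0.49 without that library, and Nr3c2 lies at -0.48 between treated mice and WT control in both fits.

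Nr3c2 followed the CA1 markers from animal to animal. After group means were removed, its log2 value correlated with the mean log2 level of 6 CA1 markers (r = 0.77, adjusted permutation p = 0.00720 over 15 marker lists; rho = 0.83, adjusted permutation p = 0.00210). Without the 2 libraries farthest in CA1 level, WT control 4 and APP anti-miR-mix 3, r was 0.69. WT control had a mean CA1 level of 11.94 on the log2 scale, against 11.81 for APP control and 11.79 for the treated mice. No other list passed the threshold. The part of CA1 content in the difference of Nr3c2 between groups was not tested beyond the fit with the CA1 level.

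With all 19 libraries, Errfi1 and Sgk1 varied with Fkbp5 between animals of a group. For Errfi1 r was 0.67 over 19 libraries (adjusted permutation p = 0.00864 over 9 pairs; rho = 0.69, adjusted permutation p = 0.0126) and 0.68 without APP control 5 and APP control 6, the libraries farthest in Fkbp5. For Sgk1 r was 0.71 (adjusted permutation p = 0.0313; rho = 0.67, adjusted permutation p = 0.0126) and 0.56 without that pair. Without APP control 5 alone, r was 0.62 for Errfi1 (adjusted permutation p = 0.0936) and 0.45 for Sgk1 (adjusted permutation p = 0.225), so neither passed the threshold. The relation of Sgk1 also missed it without WT control 2 (adjusted permutation p = 0.0602), WT control 6 (0.106), APP control 4 (0.0530) or APP anti-miR-mix 7 (0.0546). The relations of Hif3a (r = 0.71), Plin4 (r = 0.70) and Cdkn1a (r = 0.51) rested on that library, without which r was 0.08, -0.31 and -0.30.

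**Figure D5:**
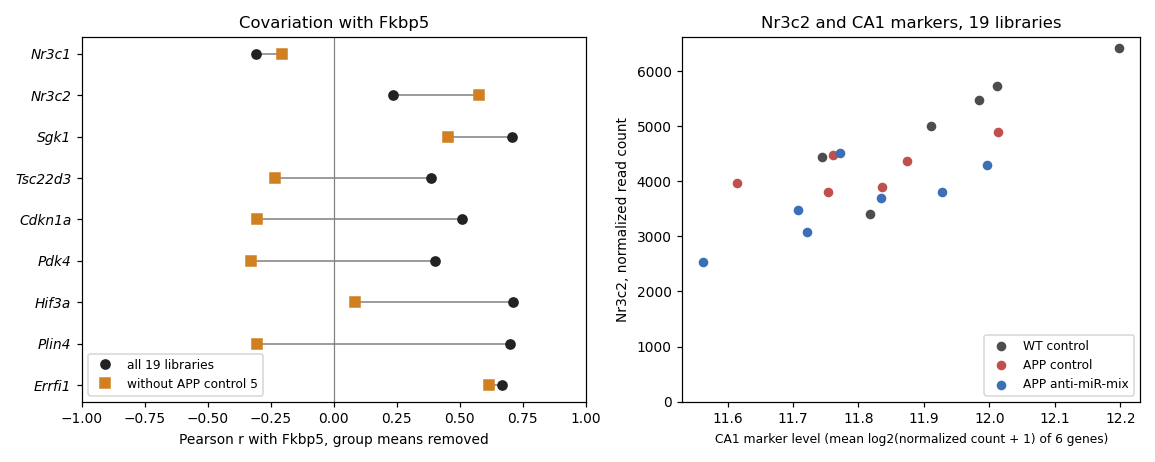
Left, Pearson r of 9 genes with Fkbp5 after removal of group means, with all 19 libraries (circles) and without APP control 5 (squares); right, Nr3c2 normalized read count against the CA1 marker level (mean log2 value of 6 genes), 1 point per library. Errfi1 (0.62) and Nr3c2 (0.57) have the highest r without APP control 5, and Nr3c2 is higher where the CA1 level is higher (r = 0.77 after removal of group means).

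Set beside 14090 genes by their correlation with Fkbp5, Hif3a was at place 78, Sgk1 at 87, Plin4 at 105 and Errfi1 at 149. The 10 genes most like Fkbp5 were Ncbp1 (r = 0.95), Dnajc28, Ddit4, Gpd1, Pcdhga3, Sparc, Amz2, Myo1h, Diaph1 and Smim4 (r = 0.83). The 5 least like it were Grm3 (r = -0.90), Slc6a9, Cspg5, Gucy2g and BC065397. None of these 10 and 5 genes was in the corresponding list without APP control 5, which Bzw2 (r = 0.94), Cadps2 and Tanc1 then led and Usp43 (r = -0.89) closed. Without that library Errfi1 was at place 599, Sgk1 at 1607, Hif3a at 6212 and Plin4 at 11738.

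Other genes of the pathway were read from lists chosen by function. Between APP control and WT control, 2 of 18 further induced genes were called higher and 1 lower, where 3.66% of all genes tested were called higher and 1.05% lower, with a median log2 fold change of 0.20 (0.03 without APP control 5) against -0.01 for all genes. Dusp1, a phosphatase gene that is also an early response gene, fell by 0.58 on the log2 scale (DESeq2 adjusted p = 1.23e-05). The metallothionein genes Mt2 (0.35, adjusted p = 0.0410) and Mt1 (0.35, adjusted p = 0.0487) were higher, but edgeR called neither and both calls were lost with the CA1 level (adjusted p = 0.114 and 0.123). Mt1 was highest of the 19 libraries in APP control 5, and without it the value was 0.27 (adjusted p = 0.165). Of 7 immediate early genes, 6 were called lower in this comparison, and 7 were for the treated mice against WT control, where 3.37% of all genes were called lower and 5.59% higher, and their part in the value of Dusp1 was not tested.

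Of 5 steroid handling genes tested, 1 was called higher in APP control and 2 in the treated mice against WT control, and of 5 stress peptide genes 1 was called lower in each, beside 4.71% and 8.96% of all genes called in these comparisons. Abcb1b, which encodes a P-glycoprotein that exports steroids, was higher in APP control (log2 fold change 0.47, DESeq2 adjusted p = 0.00226) and in the treated mice (0.54, adjusted p = 5.97e-05) than in WT control. Crhbp, which encodes the binding protein of corticotropin-releasing hormone, was lower in both (-0.41, adjusted p = 0.000201, and -0.49, adjusted p = 7.67e-07). Both held in all 35 alternatives. Of 10 receptor chaperones, Hspa8 and Hsp90aa1 were lower at -0.18 against WT control both in APP control, where 1.05% of all genes were called lower, and in the treated mice, where 3.37% were (DESeq2 adjusted p from 0.0199 to 0.0434), and edgeR called neither. Without APP control 5 neither was called between APP control and WT control (adjusted p = 0.116 for Hspa8 and 0.104 for Hsp90aa1). With the CA1 level neither was called in either comparison (adjusted p from 0.0805 to 0.132). Of 8 coregulators, 0 were called between APP control and WT control and 1, Ncor1, was called lower between treated mice and WT control (-0.13, DESeq2 adjusted p = 0.0355), beside 3.37% of all genes called lower there. That call was lost in edgeR (adjusted p = 0.123) and with the CA1 level (0.327).

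In the treated mice against WT control, Dusp1 was lower (-0.64, DESeq2 adjusted p = 2.00e-07), as was the clock gene Per1 (-0.29, adjusted p = 0.0176, edgeR 0.0602). No other of the 18 further induced genes was called there, where 3.37% of all genes were called lower and 5.59% higher. Abcb1a was higher (0.31, adjusted p = 0.0299). With the CA1 level the calls for Per1 (adjusted p = 0.0658) and Abcb1a (0.172) were lost. Against APP control no gene of these lists was called. Arrdc2 (log2 fold change -0.44) and Ddit4 (-0.29) came first there by unadjusted p, with DESeq2 adjusted p values of 1.00. Both had their highest value of the series in APP control 5, and without it the values were -0.17 and -0.08. Hsd11b2, Avp and Ucn were too low to be tested.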

How the data were processed

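RNA of 19 CA1 libraries was sequenced by the authors as single-end reads of 50 nt, aligned to mm10 with STAR (2.5.2b) and counted per gene with featureCounts of Subread (1.5.1), per the labels. The deposited count files hold raw counts. Annotation release and strandedness are not given in the sources used here. The authors also deposited normalized log2 values for 18825 genes, used as an alternative only. Symbols came from GENCODE M21, which matched 48349 of 48709 identifiers. The 19297 genes that reached 5 counts in 50% of samples or more were tested with DESeq2 (1.42.0), all groups in 1 fit, unshrunken Wald tests and Benjamini-Hochberg adjustment over all genes at 0.05. edgeR (4.0.16) quasi-likelihood tests and limma (3.58.1) were among 35 alternatives, 5 of them added after the data were seen. Correlations used log2(normalized count + 1) without group means and 100000 two-sided permutations within groups. Members and lists were chosen with earlier results of these data known. All 10 members, the called genes of each list and the genes most like Fkbp5 were named. Tests were tried on simulated data. Without stated strandedness, reads of Nr3c2 and its antisense neighbour Gm10649 cannot be told apart where they overlap.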

Additional observations from a re-analysis of the deposited data

Results flagged for a closer look

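In 5 of 30 groups of 6 or 7 libraries (10 genes in 3 groups) 1 library lay far from the others by Dixon's criterion. Chance gives about 1.5 for independent groups. The 10 genes were measured in the same animals, so the groups are not independent and 5 cannot be set against that number. All 5 were the highest value of APP control and all came from APP control 5. The normalized read count there was 3019 for Fkbp5 (others 1308 to 1716), 565 for Cdkn1a (209 to 293), 1239 for Hif3a (310 to 425), 1527 for Plin4 (157 to 215) and 1170 for Errfi1 (959 to 1013). The cause was not tested.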

How the results depend on the processing

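Of 1481 values recomputed, 1374 kept their direction and side of the threshold, 36 counts moved, 45 values turned, 18 passed the threshold anew and 8 no longer did; the causes were not tested. The number of genes called between APP control and WT control (908) was 523 with the endothelium level as a term and 600 in edgeR with the adjustment number, a whole number per library by which the deposited table was shifted. Between treated mice and APP control (0) it was 3 with only these groups, 4 with Xist, 2 with the CA1 level, 166 with the CA2 level and 0 to 3 with 1 library left out. Between treated mice and WT control (1727) it was 892 with the endothelium level and 933 with the CA1 level. Of the 10 genes, 0 were called between APP control and WT control, 2 with Xist (Fkbp5 and Plin4, with 5.65% of all genes called), 1 without the outlier filter (Plin4, 4.74%) and 0 to 1 with 1 library left out (3.43% to 6.23%): Cdkn1a without WT control 1, Sgk1 without WT control 6, Plin4 without APP control 5 and Fkbp5 without APP control 6. The fit with Xist tested 19297 genes, as did the fit without the outlier filter, so it withheld no gene for an outlying count. Xist ran only from 5.95 to 19.1 normalized read counts, and Ddx3y of the Y chromosome from 749 to 2211. The Xist term is therefore not an adjustment for sex. Between treated mice and WT control 1 was called, 4 with only these groups (9.72% of all genes), 4 in edgeR without APP control 5 (6.90%), 0 without WT control 5 and APP anti-miR-mix 6 (6.53%), 0 with the CA1 level and 1 to 4 with 1 library left out (6.02% to 10.4%). The correlations with Fkbp5 past the threshold (2) were 0 to 2 with 1 library left out, and the members among the 100 genes most like Fkbp5 (2) were 0 without APP control 5.

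The following values turned in sign. Log2 fold changes of Errfi1 between APP control and WT control were 0.024 in the deposited table, 0.0014 with the adjustment number, 0.020 with Xist, 0.081 with the CA1 level, 0.042 with the CA2 level, 0.012 in edgeR with the adjustment number and -0.057 to 0.016 with 1 library left out. With the endothelium level Pdk4 was -0.090 there, and between treated mice and WT control Pdk4 was -0.18, Fkbp5 -0.099 and Plin4 -0.080. Between treated mice and APP control, leaving out 1 library gave -0.040 to 0.10 for Tsc22d3, -0.13 to 0.059 for Pdk4, -0.33 to 0.30 for Hif3a, -0.10 to 0.27 for Cdkn1a, -1.11 to 0.25 for Plin4 and -0.031 to 0.069 for Nr3c1. In edgeR without APP control 5 the values were 0.061 for Pdk4, 0.30 for Hif3a, 0.27 for Cdkn1a, 0.25 for Plin4 and -0.016 for Nr3c1. Cdkn1a was 0.055 in the deposited table and 0.0024 with the endothelium level, Pdk4 was 0.027 with the CA2 level, and Nr3c1 was -0.0033 with the endothelium level and -0.020 without WT control 5 and APP anti-miR-mix 6. Correlations with Fkbp5 ranged with 1 library left out from -0.23 to 0.53 for Tsc22d3, -0.30 to 0.64 for Cdkn1a, -0.33 to 0.56 for Pdk4 and -0.31 to 0.75 for Plin4.

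Libraries of different groups share replicate numbers in the labels. Their deviations correlated at -0.125 to 0.347, over 0.1 in 10 of 18 pairs, and 5 of 18 libraries were most like their own number. Since not every pair was over 0.1, the numbers were not taken as pairs. With the replicate block, 1 gene was called between treated mice and APP control, Cdkn1a was 0.049 there, and Nr3c2 between treated mice and WT control was -0.40 (DESeq2 adjusted p = 0.00296). The block left out APP anti-miR-mix 7, whose number no other library has. Its Nr3c2 count, 2544, was the lowest of the series, and the part of this omission was not tested.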
